A study of Mus musculus with 6 samples.

Results

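The 9 genes described here, Trpc1, Trpc4, Trpc5, Trpc6, Trpm2, Trpm3, Trpm7, Trpv2 and Trpv4, encode transient receptor potential (TRP) cation channels and were taken by symbol from the 54838 genes of a hippocampal RNAseq count table. They were chosen with the difference between wild-type and transgenic mice in these libraries already known, together with the knowledge that Trpm3 and Trpv4 are also expressed in the choroid plexus. The members were thus selected on the same genotype contrast that is shown here, and their fold changes are given as a description, without p-values. RNA came from individual hippocampi of 3 wild-type and 3 FVB/NJ-Tg(Orai1)Ibd females aged 7 months, and each mouse gave 1 library. The transgenic line was made on FVB/NJ by pronuclear injection of a coding sequence of human ORAI1, a store-operated calcium channel, in a mouse Thy-1.2 cassette, which is used to drive expression in neurons. The wild-type mice do not carry the construct, and no other allele or treatment is given for either genotype. The comparison asks how the amounts of TRP channel transcripts differ between hippocampi with and without this neuronal transgene.

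TRP channels are tetramers that let calcium and other cations into the cell or out of organelles. Trpc channels open downstream of receptors that couple through Gq to phospholipase C, and in the hippocampus they are best known from pyramidal and granule neurons. Trpm and Trpv channels answer to other stimuli, such as heat, oxidative stress, steroids or changes in osmolarity. The choroid plexus is a secretory epithelium in the ventricles next to the hippocampus that makes cerebrospinal fluid, and its cells carry Trpv4 and Trpm3.

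Sequencing depth, as total counts on genes, ranged from 37710188 to 52497799 for wild-type mice and from 37414241 to 47027279 for transgenic mice. Orai1 was counted at 7.18, 7.16 and 8.08 counts scaled to library size (CPM) in the wild-type and at 313, 331 and 316 CPM in the transgenic mice, which separated the libraries as labelled. Pan-neuronal markers were abundant in every library, with a summed level of 6 genes of 760.5 to 800.2 FPKM (fragments per kilobase of gene length, scaled to library size) in wild-type mice and 784 to 814 FPKM in transgenic mice. Of these, Slc17a7 was called higher and Gad2 lower in transgenic mice, but neither call held with GC offsets alone or without wild-type mouse 1 or 2 or transgenic mouse 2 or 3. Gad2 was called, and Slc17a7 was not, with the replicate number as a block, with this block and GC offsets together, and without wild-type mouse 3. No gene of any marker list was at 0 in all libraries. Markers of the choroid plexus were counted in all 6 libraries as well.

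Compared per gene length, Trpm3 was the most abundant of the 9 transcripts in wild-type hippocampus, at 16.6 ± 1.01 FPKM (mean ± SD, n = 3). Trpc4 at 7.28 ± 0.447 FPKM and Trpm7 at 7.24 ± 0.134 FPKM came next and did not differ beyond the spread between mice. Trpc1 followed at 6.53 ± 0.464 FPKM, and Trpc6 at 3.99 ± 0.327 FPKM was in turn separated from it. The 3 wild-type values of Trpm2 (3.41 ± 0.212 FPKM) overlapped those of Trpc5 (3.20 ± 0.457 FPKM), these overlapped those of Trpv4 (2.73 ± 0.404 FPKM), and these overlapped those of Trpv2 (2.24 ± 0.136 FPKM). Mouse 1 had the highest level of the 3 wild-type mice for each of the 4 Trpc genes, for Trpm2 and for Trpm3. In transgenic mice Trpm3 at 6.72 ± 0.695 FPKM was no longer separated from Trpc4 at 6.13 ± 0.312 FPKM or Trpm7 at 6.10 ± 0.221 FPKM. Trpv4 was the lowest of the 9 there, at 0.411 ± 0.0152 FPKM, below all transgenic values of Trpc5 and Trpv2.

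**Figure D1:**
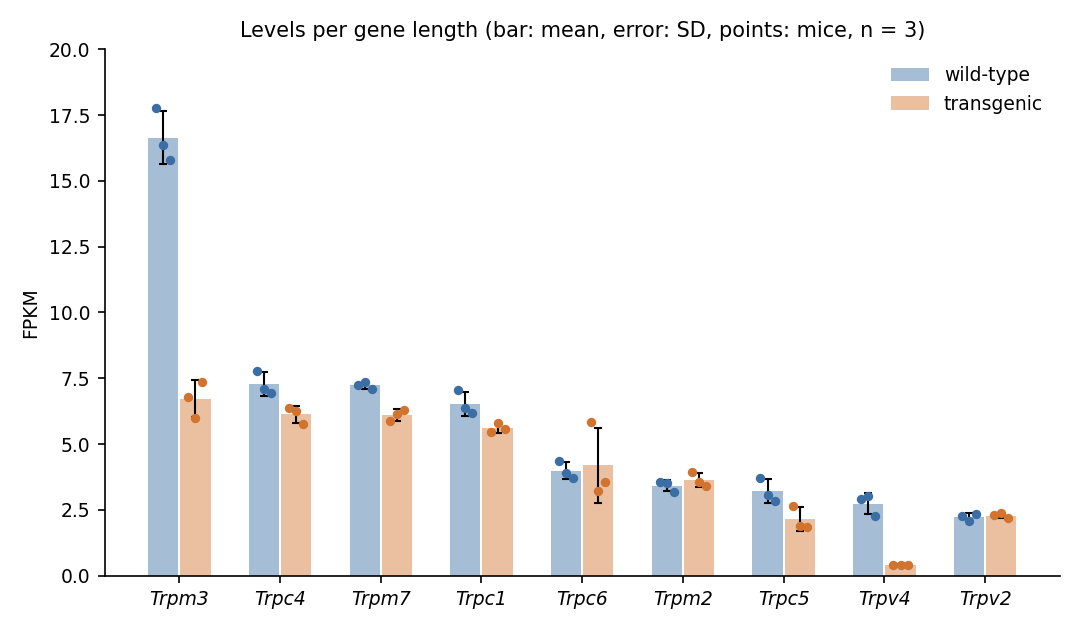
Levels of the 9 TRP channel genes in FPKM, with a bar for the mean, an error bar for the SD and a point for each of 3 mice per genotype. Trpm3 stands above the other genes in wild-type mice at 16.6 FPKM and lies beside Trpc4 and Trpm7 in transgenic mice at 6.72 FPKM.

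Of the 9 genes, all passed the filter on low counts, and 3 were called at an adjusted p under 0.05 by edgeR's quasi-likelihood test across all genes. These were Trpm3, Trpm7 and Trpv4, each of them lower in transgenic mice. Among all 19087 genes tested, 7.1% were called in either direction and 4% were called lower. For 6 of the 9 genes (Trpc1, Trpc4, Trpc5, Trpm3, Trpm7 and Trpv4) every transgenic mouse was below every wild-type mouse, while the genotypes did not overlap, in either direction, for 34.9% of all genes. The median log2 fold change of the 9 was -0.25, and that of all genes tested was -0.01. Nothing is read from these counts, because the same contrast was known when the genes were chosen.

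**Figure D2:**
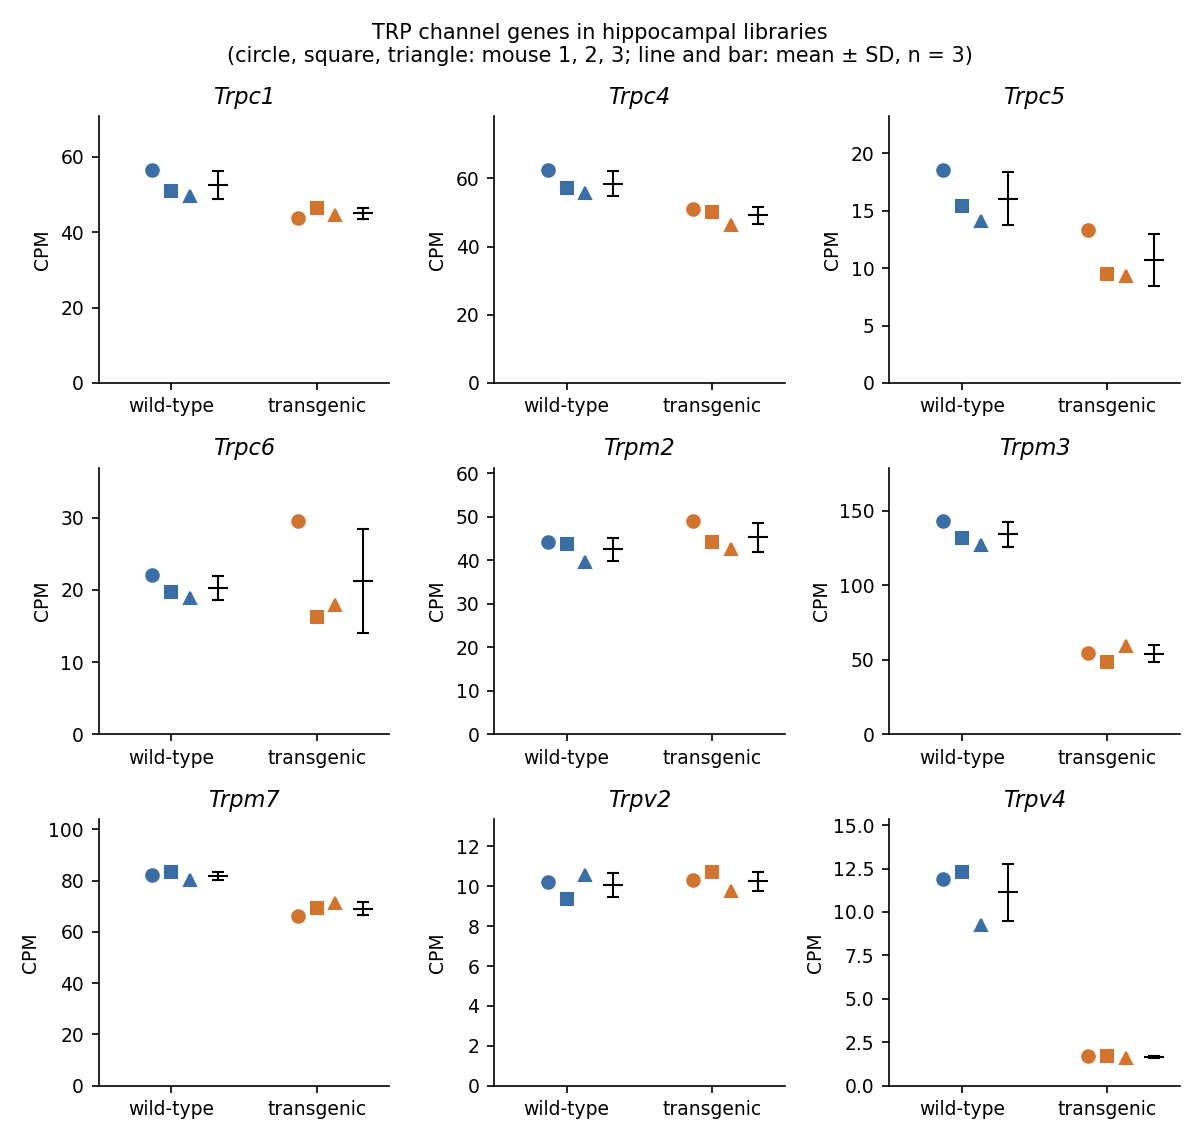
CPM of each TRP channel gene in 3 wild-type and 3 transgenic mice, 1 panel per gene with its own vertical axis, where symbols mark the mouse and the line and bar give the mean ± SD. The transgenic values of Trpm3 (48.3 to 59.5 CPM) and Trpv4 (1.60 to 1.72 CPM) lie far below the wild-type values, and Trpc6 has 1 high transgenic value at 29.5 CPM.

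Trpm3 encodes a channel opened by the neurosteroid pregnenolone sulfate and by heat. The gene (ENSMUSG00000052387) covers 850766 bp of the plus strand of chromosome 19 (GRCm38, 22139119 to 22989884) with 24 annotated transcripts, 17 of them coding. Its levels were 143, 132 and 127 CPM in the wild-type and 54.8, 48.3 and 59.5 CPM in the transgenic mice. The SD was 6.08% of the mean in the wild-type and 10.3% in the transgenic mice, and the highest transgenic value was below the lowest wild-type value. On average 40.4% of the wild-type level was left, a log2 fold change of -1.31 (SE 0.08), the 162nd lowest of all genes tested. In the study, real-time PCR on hippocampi of other females also gave a lower Trpm3 level, but the difference was not significant. The counts of a gene do not separate its transcripts, so which of the Trpm3 start sites were used in either genotype was not measured.

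Trpv4 encodes a channel opened by swelling, warmth and lipid messengers, which lies in the apical membrane of choroid plexus cells. The gene (ENSMUSG00000014158) lies on chromosome 5 from 114622152 to 114658421 on the minus strand. It had 622, 518 and 350 counts in the wild-type libraries and 80, 65 and 60 counts in the transgenic libraries. In CPM these were 11.9, 12.3 and 9.25 against 1.72, 1.70 and 1.60. The 3 transgenic mice were nearly alike, and 15.0% of the wild-type level was left, a log2 fold change of -2.73 (SE 0.14), the 29th lowest of all genes tested. In this bulk RNA, fewer cells that express Trpv4 or Trpm3 and less RNA of these genes per cell cannot be told apart.

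Choroid plexus markers were lower in the same libraries as Trpm3 and Trpv4. Of a list of 20 choroid plexus genes, 19 were called lower in transgenic mice and Slc13a4 was not, where 4% of all genes were called lower. Without wild-type mouse 1 or 2 or transgenic mouse 3, 15 were called, and without transgenic mouse 2, 17. Of all genes tested in these fits, 0.399%, 0.487%, 0.552% and 0.978% were called in either direction, in this order. The median log2 fold change of the list was -2.51. This list was also chosen with earlier results of these data known, so its calls are not independent support. Summed over the list, the level was 2081 to 3701 FPKM in wild-type mice and 234 to 417 FPKM in transgenic mice, so that 10.8% was left. Ttr, which encodes the thyroid hormone carrier transthyretin, had 9.14% of its wild-type level left, and Kcne2, a potassium channel subunit of this epithelium, had 9.63%. Folr1, a folate receptor, had 13.1% left and Otx2, a transcription factor of choroid plexus identity, 21.7%. In the study's real-time PCR on hippocampi of other females, Kcne2 and Folr1 were lower too, but not significantly. When the 20 genes, Trpm3 and Trpv4 were put in order from the smallest share left, Trpv4 took place 10 and Trpm3 place 20 of 22. Markers of the ependyma, the ciliated lining of the ventricles, all had negative fold changes, with 1 of 7 called (Hydin) against 7.1% of all genes, and 3 of 7 called by DESeq2 against 11.7% of all genes. Hydin was called without transgenic mouse 1 but not when any other mouse was left out, nor with DESeq2's size factors, the stricter filter, the replicate block, or offsets for GC or gene length. The summed level of the 7 was 21.3 to 31.4 FPKM in wild-type mice and 13.3 to 21.0 FPKM in transgenic mice. Of 5 markers of the neighbouring thalamus and septum, 3 had negative and 2 positive fold changes. None was called by edgeR's test, and DESeq2 called 1. Their summed level was 14.0 to 27.0 FPKM in wild-type mice and 12.2 to 15.7 FPKM in transgenic mice, with overlap. None of these markers was at 0, and the part of choroid plexus or ependymal RNA in the Trpm3 and Trpv4 levels was not tested.

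**Figure D3:**
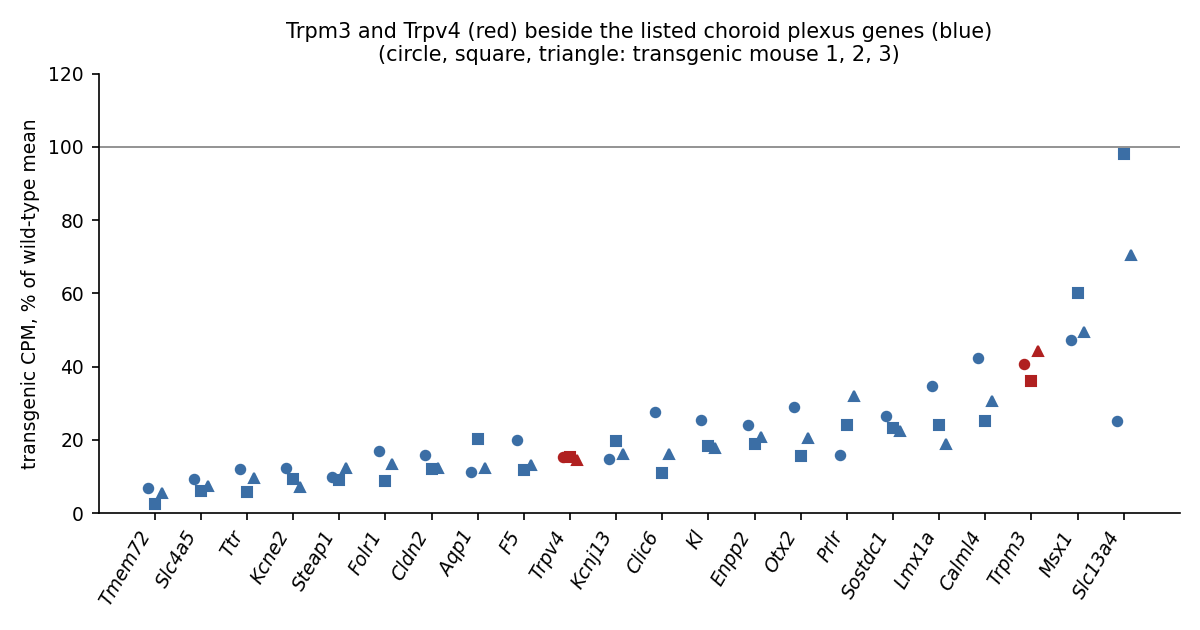
Level left in transgenic mice, as a percentage of the wild-type mean CPM, for Trpm3 and Trpv4 (red) and 20 listed choroid plexus genes (blue), with a symbol for each transgenic mouse and a line at 100%. Trpv4 at 15.0% lies among the choroid plexus genes, while Trpm3 at 40.4% lies near their upper end, below Msx1 at 52.2% and Slc13a4 at 64.5%.

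The share of the wild-type mean left in each transgenic mouse was nearly constant for Trpv4. It was 15.4%, 15.3% and 14.4% for Trpv4 in mice 1, 2 and 3, and 12.2%, 5.68% and 9.57% for Ttr. For Trpm3 it was 40.8%, 36.0% and 44.3%. Mouse 2 had the lowest share of the 3 for Trpm3 and for 11 of the 20 choroid plexus genes, Ttr among them, and mouse 3 had the lowest for Trpv4 and for 4 of the 20. The ratio of Trpm3 to Trpv4, both in FPKM, was 6.09, 5.44 and 6.96 in the wild-type mice and 16.1, 14.3 and 18.8 in the transgenic mice, without overlap.

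The genes whose profile over the 6 libraries was closest to that of Trpv4, by the root mean square difference of centred log2 CPM, were 1500015O10Rik (0.13), Col4a3 (0.14) and Kcnj13 (0.14), the last of them on the choroid plexus list. Each gene was centred on its mean over all 6 libraries, so genes with a similar genotype difference come out close. The likeness is therefore no separate support. The log2 fold changes of these 3 genes were -2.80, -2.72 and -2.57. For Trpm3 the closest genes were Smim5 (0.11), Itpripl1 (0.12) and Lmntd2 (0.12). Their log2 fold changes were -1.38, -1.47 and -1.82, against -1.31 for Trpm3. Smim5 and Lmntd2 were low in these libraries, with wild-type means of 1.29 and 0.382 CPM against 134 CPM for Trpm3.

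The promoter sequences of Trpm3 and Trpv4 are shown because these genes had the lowest fold changes of the 9. RefSeq starts on GRCm38.p6 were found for 9 of 9 genes and gave 12 promoters of 250 bases. Capitals mark matches, on either strand, to the CCAAT box (its own letters) in the first sequence and to the GC box (letters GGGCGG) in the second. The first Trpm3 promoter, at chr19:22138796-22139045 on the plus strand, had 66.4% GC, 17 CpG sites and 1 CCAAT box match beginning 67 bases before the start. The Trpv4 promoter, at chr5:114658422-114658671 on the minus strand, had 72.0% GC, 22 CpG sites and GC box matches beginning 30 and 16 bases before the start.
Trpm3 promoter: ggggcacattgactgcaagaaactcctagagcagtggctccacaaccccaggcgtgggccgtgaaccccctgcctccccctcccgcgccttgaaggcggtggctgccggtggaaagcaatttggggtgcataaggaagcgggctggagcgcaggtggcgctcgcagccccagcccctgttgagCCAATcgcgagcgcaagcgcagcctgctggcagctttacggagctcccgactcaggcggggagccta
Trpv4 promoter: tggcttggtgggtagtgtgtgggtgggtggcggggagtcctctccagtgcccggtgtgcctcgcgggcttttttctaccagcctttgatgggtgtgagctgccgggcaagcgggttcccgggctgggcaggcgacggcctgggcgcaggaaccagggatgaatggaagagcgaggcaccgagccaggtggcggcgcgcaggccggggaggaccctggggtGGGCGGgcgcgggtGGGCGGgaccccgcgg
Of all 32851 promoters of this length, 33.8% held a CCAAT box and 32.7% a GC box. The letters TAATCC, which the choroid plexus factor OTX2 is known to bind, were in none of the 12 promoters of the TRP genes and in 6.25% of all promoters. Neither were the letters TATAAA in the promoters of Trpm3 or Trpv4, while 12.4% of all promoters held them.

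A microRNA gene, Mir204, lies within an intron of Trpm3 on the same strand. Its mature forms are shown because they share the Trpm3 transcription unit, with the seed (bases 2 to 8) in capitals, at 22750610 to 22750631 and at 22750649 to 22750669 of chromosome 19.
mmu-miR-204-5p: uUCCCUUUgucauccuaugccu
mmu-miR-204-3p: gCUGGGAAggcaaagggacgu
The Mir204 gene had 3, 2 and 1 counts in the wild-type libraries and 0 counts in the transgenic libraries. Libraries of polyadenylated RNA do not measure mature microRNAs, and no difference was detectable at counts this low. On the opposite strand of Trpm3, Gm27151 had 5 to 21 counts and C330002G04Rik 1 to 12 counts per library, and the counting kept the strands apart.

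Trpm7 encodes a channel fused to a protein kinase that carries magnesium and zinc and is found in most cells. Its gene (ENSMUSG00000027365) lies on chromosome 2 from 126791565 to 126876230 on the minus strand. Its levels were 82.2, 83.2 and 80.2 CPM in the wild-type and 66.3, 69.5 and 71.2 CPM in the transgenic mice. The groups did not overlap and the spread within each was small, so that a log2 fold change of -0.25 (SE 0.05) was called, with 84.3% of the level left. Its call was lost without wild-type mouse 1 (-0.23) or 2 (-0.22), or without transgenic mouse 2 (-0.23) or 3 (-0.25). With 39.5% GC, Trpm7 had the lowest GC content of the 9 genes, and fold changes were higher for genes of higher GC content (Spearman rho 0.391 over 19079 genes, which are not independent replicates). When such trends were removed within each library, its log2 fold change was -0.06 (SE 0.04) and was not called, and when trends with gene length were removed it was -0.15 and was not called. For Trpm3 the same correction gave -1.27 and for Trpv4 -2.85, and both were still called.

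Of the Trpc genes, 3 had lower values in every transgenic mouse and were not called by edgeR's test, while DESeq2's Wald test called all 3. Over all genes, edgeR's test called 7.1% and DESeq2's 11.7%, and the genotypes did not overlap for 34.9%. Trpc1 (ENSMUSG00000032839, chromosome 9 from 95705082 to 95750375), a subunit that assembles with other Trpc proteins, had 56.6, 51.1 and 49.6 CPM in the wild-type and 43.8, 46.5 and 44.7 CPM in the transgenic mice, a log2 fold change of -0.22 (SE 0.06). Trpc4 (ENSMUSG00000027748, chromosome 3 from 54156035 to 54318471), which with Trpc5 forms a subgroup of close relatives, had 62.6, 57.1 and 55.8 CPM against 51.1, 50.2 and 46.4 CPM, a log2 fold change of -0.25 (SE 0.06). On average 85.8% of the wild-type level was left for Trpc1 and 84.2% for Trpc4, and the groups did not overlap for either gene. Trpc5 (ENSMUSG00000041710, X chromosome from 144381671 to 144688180) had 18.6, 15.5 and 14.1 CPM in the wild-type and 13.4, 9.49 and 9.32 CPM in the transgenic mice. With 66.8% left, its log2 fold change of -0.58 (SE 0.16) was the lowest of the Trpc genes. The highest transgenic value, in mouse 1, was close to the lowest wild-type value, and without that mouse the log2 fold change was -0.77 and was called.

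Trpc6 (ENSMUSG00000031997, chromosome 9 from 8544142 to 8680741), a channel opened directly by diacylglycerol, behaved differently in 1 library. Its levels were 22.1, 19.7 and 18.9 CPM in the wild-type and 29.5, 16.2 and 17.9 CPM in the transgenic mice. Transgenic mouse 1 was the highest and mouse 2 the lowest of all 6, the groups overlapped, and the log2 fold change was 0.07 (SE 0.21). Without transgenic mouse 1 it was -0.24, with the other 2 transgenic values below all wild-type values, and it was not called. Of all genes tested, 23.7% were the highest of the 6 libraries in transgenic mouse 1, as were 3 of 5 markers of dentate granule cells, 2 of 4 of CA1, 2 of 6 of CA3 and CA2 and 2 of 6 pan-neuronal markers. The granule cell markers were Dsp (72.7 CPM, against 43.6 and 52.9 CPM in the other transgenic mice), Plk5 (34.3 against 28.0 and 31.5 CPM) and Tdo2 (5.66 against 3.59 and 4.86 CPM). Tdo2 was nearly as high in wild-type mice 1 and 2, at 5.64 and 5.55 CPM. Prox1 was between the other transgenic mice, and C1ql2 was the lowest of the 3 there, at 33.8 CPM against 69.6 and 68.8 CPM. The summed level of the 5 was 41.0 to 51.7 FPKM in wild-type mice and 50.3, 60.7 and 65.9 FPKM in transgenic mice 1, 2 and 3. Without C1ql2, left out after the values were seen, it was 25.59 to 30.04 FPKM in wild-type mice and 33.4, 25.9 and 31.5 FPKM in transgenic mice 1, 2 and 3, so that the place of mouse 1 depends on that gene. None of the 5 was called by edgeR's test, and 1 had an unadjusted p under 0.05, where 27.8% of all genes did. DESeq2 called 1, where it called 11.7% of all genes, and limma-voom called 0. The part of granule cell RNA in the Trpc6 level was not tested. As a share of the summed FPKM of the 4 Trpc genes, Trpc6 made up 19.0% in each wild-type mouse and 28.7%, 18.7% and 21.2% in the transgenic mice.

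Trpm2 and Trpv2 had overlapping groups. Trpm2 (ENSMUSG00000009292, chromosome 10 from 77907722 to 77970563), a channel opened by ADP-ribose under oxidative stress and known from microglia and neurons, had 44.3, 43.8 and 39.5 CPM in the wild-type and 49.0, 44.2 and 42.5 CPM in the transgenic mice. Its log2 fold change of 0.09 (SE 0.07) was not called. The value was 0.03 to 0.15 without 1 mouse, 0.02 with GC trends removed and 0.20 with gene length trends removed. Trpv2 (ENSMUSG00000018507, chromosome 11 from 62574486 to 62600515), a channel known from phagocytes and some neurons, had 10.2, 9.38 and 10.6 CPM against 10.3, 10.7 and 9.75 CPM. Its log2 fold change was 0.03 (SE 0.08), and its sign turned to -0.05 once GC trends were removed. Microglial markers varied among the mice of both genotypes, with a summed level of 10 genes of 174 to 259 FPKM in wild-type mice and 171 to 282 FPKM in transgenic mice. Of the 10, edgeR's test, DESeq2 and limma-voom each called 0, and 1 had an unadjusted p under 0.05 (27.8% of all genes tested did). The part of microglial RNA in the Trpm2 and Trpv2 levels was not tested.

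**Figure D4:**
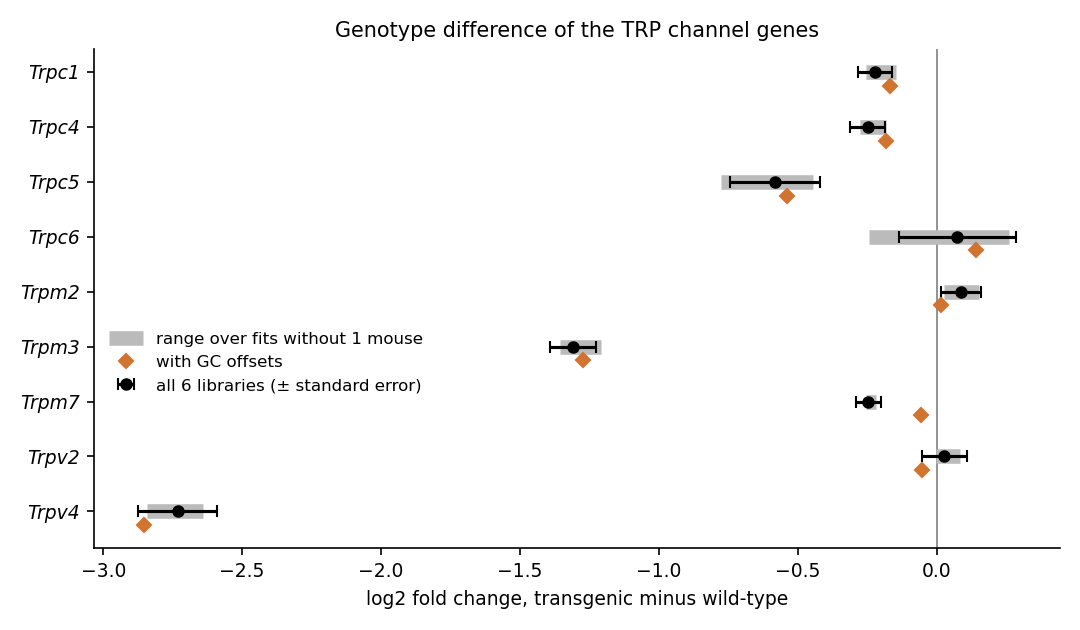
Log2 fold change (transgenic minus wild-type) of each TRP channel gene from all 6 libraries with its standard error (black), the range over fits that leave out 1 mouse (grey) and the value with GC trends removed (diamonds). Trpv4 and Trpm3 stay far below 0 throughout, Trpm7 moves to -0.06 with GC trends removed, and the range of Trpc6 crosses 0.

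The summed level of the 9 genes was 53.3 ± 3.19 FPKM in the wild-type and 37.2 ± 2.12 FPKM in the transgenic mice (n = 3 each). Of this difference of 16.1 FPKM, 61.8% was in Trpm3, 14.5% in Trpv4 and 23.8% in the other 7 genes. The 3 Trpm genes together were at 27.3 and 16.5 FPKM and the 2 Trpv genes at 4.97 and 2.70 FPKM, in both cases without overlap. The 4 Trpc genes were at 21.0 ± 1.69 FPKM in the wild-type and 18.1 ± 1.95 FPKM in the transgenic mice, with overlapping values. The share of Trpm3 in the sum of the 9 was 31.2% ± 0.188 in the wild-type and 18.1% ± 1.90 in the transgenic mice.

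The other 19 genes of the TRP family were given as a list irrespective of their change, and 11 of them passed the filter, of which 10 are named here and 1 is not reported. None was called by edgeR's test, while 2 (Trpv3 and Pkd2) had an unadjusted p under 0.05, against 27.8% of all genes tested. DESeq2 called 1 (Pkd2), against 11.7% of all genes, and limma-voom called 0. The median log2 fold change of the 11 was -0.20. The most abundant were Mcoln1, a lysosomal channel, at 8.79 ± 0.229 FPKM in the wild-type and 9.42 ± 0.246 FPKM in the transgenic mice, and Pkd2, polycystin 2 of primary cilia, at 7.98 ± 0.207 and 6.98 ± 0.334 FPKM. Pkd2 had 81.8, 82.9 and 78.8 CPM against 67.2, 71.6 and 73.9 CPM without overlap, a log2 fold change of -0.20 (adjusted p = 0.0585, edgeR). Trpv3 had 1.76, 1.85 and 1.51 CPM against 1.18, 1.23 and 1.42 CPM, a log2 fold change of -0.42 (adjusted p = 0.145, edgeR). Further log2 fold changes were -0.17 for Trpc7, a close relative of Trpc6, 0.02 for Trpm4, a calcium-activated channel, -0.15 for Trpm6, the relative of Trpm7, -0.35 for Trpv6, -0.38 for Trpa1, 0.10 for Mcoln1, 0.26 for Pkd2l1 and -0.40 for Pkd2l2. The 8 that did not pass the filter had at most 17 counts in a library, and Trpc2 and Trpv5 were at 0 in all 6.

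The route from Gq-coupled receptors to Trpc channels was covered by a list of 26 genes, and 5 of them were called, while 7.1% of all genes were. DESeq2 called 10 of the 26, while it called 11.7% of all genes. Grm5, a metabotropic glutamate receptor, had 330, 312 and 272 CPM in the wild-type and 223, 222 and 229 CPM in the transgenic mice, a log2 fold change of -0.44 (SE 0.07, adjusted p = 0.0222, edgeR). The phospholipases Plcb1 and Plcb4, which act below such receptors, had log2 fold changes of -0.26 (adjusted p = 0.0312, edgeR) and -0.44 (adjusted p = 0.039, edgeR), from 252 to 211 and from 33.5 to 24.7 CPM. Homer3, a scaffold protein that links these receptors to Trpc channels and to inositol trisphosphate receptors, was called higher, at 43.8, 48.6 and 54.4 CPM against 61.5, 61.7 and 65.2 CPM, a log2 fold change of 0.36 (adjusted p = 0.0422, edgeR). The fifth was Orai1, with a log2 fold change of 5.42, to which the transgene can contribute reads. The median log2 fold change of the 26 genes was 0.06. With GC trends removed Grm5 and Orai1 were called, and without wild-type mouse 1 or 2 or transgenic mouse 2 or 3 the only call was Orai1. Some of these genes had been seen in earlier results of these data, so the calls are not independent support.

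A further list held 9 genes that act with Trpm2 or Trpv4, and 1 of them was called, where 7.1% of all genes were. Aqp1, a water channel of the apical choroid plexus membrane that is also on the choroid plexus list, had 21.5, 19.0 and 14.9 CPM in the wild-type and 2.08, 3.75 and 2.30 CPM in the transgenic mice, a log2 fold change of -2.78 (SE 0.23, adjusted p = 0.00218, edgeR). Of the other 8, the smallest p-values belonged to Ano1, a calcium-activated chloride channel, and to Kcnma1, a calcium-activated potassium channel. Ano1 was at 6.89 ± 1.91 and 4.46 ± 0.865 CPM (log2 fold change -0.64, adjusted p = 0.127, edgeR) and Kcnma1 at 293 ± 13.4 and 267 ± 3.96 CPM (log2 fold change -0.13, adjusted p = 0.131, edgeR). Aqp4, the astrocyte water channel that is studied together with Trpv4, was at 189 ± 45.3 CPM in the wild-type and 181 ± 50.4 CPM in the transgenic mice.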

How the data were processed

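Polyadenylated RNA of 6 hippocampi, 3 per genotype, was sequenced in pairs of reads. According to the submitters' processing notes and the file header, the authors trimmed reads with Trimmomatic, aligned them to mm10 with STAR and counted fragments on the Ensembl annotation with featureCounts v1.5.0-p1, keeping strands apart. The deposited values are raw counts per gene, not normalized, with exonic gene lengths.

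Genes were matched to symbols by Ensembl identifier (54723 of 54838), and all 9 TRP genes were found. Low genes were removed with filterByExpr (minimum count 10), which left 19087 genes. Libraries were scaled by TMM and genotypes compared with edgeR 4.0.16 (quasi-likelihood F-test, R 4.3.3), with Benjamini-Hochberg adjustment over all genes and a threshold of 0.05. CPM and FPKM were computed from the scaled totals (TMM factors 0.992 to 1.005) and the deposited lengths. SE are the log2 fold change divided by the square root of F. The fit was tested on simulated data.

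The members and all gene lists were chosen with earlier results of these data known. Named genes were the 9 members, every other TRP gene passing the filter apart from 1 that is not reported here, the called genes of the pathway and partner lists (or, where fewer than 3 were called, the 3 with the smallest p), 4 choroid plexus genes, Orai1, and the 3 closest profiles to Trpm3 and Trpv4. Other genes, such as the dentate granule markers and Aqp4, were named after their values were seen.

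Alternatives were other scalings, DESeq2 1.42.0, limma-voom (limma 3.58.1), other filters, offsets for GC content or gene length (loess, span 0.5), the replicate number as a block, and leaving out each mouse. The test used in the study, NOISeq, was not repeated. Sequences came from RefSeq on GRCm38.p6. P-values set the genotype difference against the spread between mice of the same genotype, with 1 library per mouse. Counting error limits genes with few counts.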

Additional observations from a re-analysis of the deposited data

How the results depend on the processing

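Trpm3 and Trpv4 kept their direction and their call in all 17 alternatives, with log2 fold changes from -1.36 to -1.21 and from -2.85 to -2.64. Trpm7 was called in 9 of the 17, and not with GC offsets (-0.06), gene length offsets (-0.15), the replicate block (-0.25), GC offsets with the block (-0.06) or without 4 of the mice in turn (-0.25 to -0.22). Trpc5 was called in 5, Trpc4 in 2, Trpc1 in 1 and Trpc6, Trpm2 and Trpv2 in 0. Without 1 mouse the log2 fold change ranged from -0.24 to 0.26 for Trpc6 and from -0.0035 to 0.083 for Trpv2. Signs turned for Trpc6 without transgenic mouse 1 (-0.24) and for Trpv2 with GC offsets (-0.0516), with GC offsets and the replicate block together (-0.0510) and without wild-type mouse 2 (-0.0035). DESeq2's Wald test called 6 of the 9 TRP genes, and leaving out 1 mouse gave 2 to 4, against 3. Among the other TRP and the listed pathway and partner genes, 6 were called, 12 with DESeq2, 3 with GC offsets and 2 to 8 without 1 mouse. Over all genes 1355 were called, 2230 with DESeq2, 738 with the replicate block, 394 with GC offsets, 416 with GC offsets and the block, 864 with gene length offsets and 77 to 1149 without 1 mouse. Higher calls were 43.6% of all calls, 30.7% with GC offsets, 35.6% with the replicate block and 24.3% with both. Leaving out 1 mouse gave shares from 13.8% (wild-type mouse 2) to 40.6% (transgenic mouse 1). Same-numbered mice of the genotypes are different animals, and their deviations from the group means correlated at 0.399, -0.357 and 0.388 over 11191 genes, so the numbers were not taken as pairs. With the replicate block, Trpc5, Trpm3 and Trpv4 were called. The cause of these shifts was not tested. Genes with few counts, such as Trpv3, are also limited by counting error.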
